A study of Mus musculus with 20 samples.

Results

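Primordial germ cells, the precursors of eggs and sperm, are guided and kept alive in the embryo by paired signals from the cells around them. KIT is a receptor tyrosine kinase on germ cells, and its ligand KITL (stem cell factor) is made by neighbouring somatic cells and supports germ cell survival, division and movement. CXCL12 is a chemokine made along the migration path and in the gonad, CXCR4 is the germ cell receptor that follows it, and ACKR3 is an atypical receptor that binds the same chemokine and removes it without the usual G protein signal. The values below are those of the genes for these 5 proteins, Kit, Kitl, Cxcl12, Cxcr4 and Ackr3, taken as every probe set that the platform annotation assigns to one of them. These 5 of the 18193 genes with a probe set of their own had 11 probe sets among the 45037 on the array: 2 for Kit, 4 for Kitl, 3 for Cxcl12, 1 for Cxcr4 and 1 for Ackr3.

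RNA was measured on 20 one-colour Affymetrix arrays from male mouse embryonic stem cell derivatives of the mixed C57BL/6;129 background, 2 arrays in each of 10 groups. All 5 lines carry the reporters Blimp1-mVenus and stella-ECFP and the doxycycline-dependent activator Rosa26-rtTA, and the parental line carries nothing else. The BP14A line carries in addition piggyBac transgenes with a tetracycline-responsive minimal promoter for all 3 germ cell factors, tagged as Avi-Blimp1, 3xFLAG-Prdm14 and V5-Tfap2c, while the B, P14 and A lines carry the first, the second and the third of these alone. Each line was sampled as epiblast-like cells (EpiLCs, which resemble the epiblast after implantation) after 36 h of differentiation, and as aggregates after a further 24 h in GK15 medium with 1.5 µg/ml doxycycline, called day 1 here. The study asked which genes each factor changes on the way to germ-cell-like cells. Each line is 1 clone and aggregates were harvested whole, and no aggregate without doxycycline was among the samples, so factor, clone, aggregation and doxycycline cannot be told apart within a line; the parental line shares the aggregation and the doxycycline.

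Values are the deposited log2 values. A probe set was tested when its highest group mean reached 3.95, the 40th percentile of all values, which kept 30346 probe sets and 10 of the 11 members. Each difference is a contrast in 1 limma model of all 20 arrays, given in log2 units with its standard error (SE), and it was called at a Benjamini-Hochberg adjusted p under 0.05 over all kept probe sets and a size of at least 1. The series describes the arrays of a group as biological duplicates, and with 2 arrays a group the number of arrays limits the precision. Array medians lay between 4.59 and 4.86, and replicate arrays correlated at Pearson r of 0.9659 to 0.9758 over all probe sets. The 10 EpiLC and pluripotent cell markers (among them Pou5f1, Sox2 and Otx2) were all at or above the level of 3.95 in every group. Against the parental line on day 1, 50% of them were called in BP14A and in P14, 20% in B and 0% in A. Over all genes, each by its brightest probe set, it was 6.47%, 5.27%, 2.43% and 0.0286%. Pou3f1 (-4.875 and -3.31) and Dnmt3b (-3.34 and -2.07) were lower in BP14A and P14. Otx2 was lower in BP14A (-1.745) and B (-1.49), and Sox2 higher in BP14A (1.84), P14 (1.79) and B (1.125). With only the arrays compared in the fit, both B calls were lost (limma adjusted p 0.112). The probe sets of the factors themselves do not check the transgenes, since the part of the transcript they read was not given. Tfap2c was higher than in the parental line on day 1 in the BP14A (5.23), B (3.26) and P14 (4.47) lines, and differed by -0.40 in the A line (limma adjusted p 0.715), the line labelled with V5-Tfap2c. Prdm1, the gene of Blimp1, was higher in the same 3 lines (3.71, 1.40 and 2.35) and differed by 0.06 in the A line, and the dim probe set of Prdm14 was called in none of the 4 lines. Eif2s3y, a Y-linked gene, was already at 1.68 in the EpiLCs of the B line and 4.61 in those of the P14 line against 9.48 in the parental line, so the clones already differed as EpiLCs.

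In EpiLCs no member was called between a factor line and the parental line. By limma, of the 10 tested probe sets, 0 were called in any of the 4 lines, beside 0.0165% of all kept probe sets for BP14A, 0.0824% for B, 0.033% for P14 and 0.0231% for A. At an unadjusted p under 0.05 there were 2 of the 10 members in BP14A, 1 in B, 0 in P14 and 2 in A, beside 1904, 2620, 1586 and 1956 of the 30346 kept probe sets. The largest of these was Kitl 1415854_at in BP14A (-0.80), a dim probe set, and Kit 1452514_a_at was -0.43 in A and -0.28 in B. Kit 1415900_a_at had an EpiLC mean of 5.145 in BP14A and 4.70 in the parental line, without overlap of the arrays. On Kit 1452514_a_at the BP14A EpiLCs went the other way, at -0.24.

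Kit, the receptor, was higher on day 1 in the lines with all 3 factors, with Prdm14 and with Blimp1 than in the parental line. On probe set 1452514_a_at the parental arrays read 6.53 and 6.61 as EpiLCs and 6.81 and 6.68 on day 1. The BP14A arrays read 6.36 and 6.30 as EpiLCs and 8.62 and 8.92 on day 1. In the P14 line Kit went from 6.41 and 6.49 to 7.93 and 8.06, and in the B line from 6.27 and 6.32 to 7.71 and 7.84. All 6 day 1 arrays of these 3 lines lay above every EpiLC array and every parental array, and the BP14A arrays lay above those of the P14 and B lines. The A line read 6.00 and 6.27 as EpiLCs and 6.91 and 7.10 on day 1, just above the parental day 1 arrays without overlap.

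Against the parental line on day 1, Kit was 4.07-fold higher in the BP14A line (2.02 ± 0.12, limma adjusted p 2.48e-07). It was 2.38-fold higher in the P14 line (1.25 ± 0.12, limma adjusted p 1.8e-05) and 2.04-fold higher in the B line (1.03 ± 0.12, limma adjusted p 0.000229). The difference of the A line, 0.26 ± 0.12, did not pass the test (limma adjusted p 0.891). The B line value lay at the limit for a call: it was 0.96 without the parental day 1 replicate 2 or without the B day 1 replicate 2, 0.94 with arrays centred on their medians and 0.98 with quantile normalization, and with only the arrays compared in the fit its adjusted p was 0.119. Between lines, Kit was 0.99 higher in BP14A than in B (limma adjusted p 8.64e-05, 95% interval 0.74 to 1.25), which was just under the size needed for a call, but 1.06 and a call with centred arrays. It was 0.78 higher in BP14A than in P14 (limma adjusted p 0.00381), and P14 and B differed by 0.22 (interval -0.04 to 0.48). In the order of the 10 group means, the arrays of BP14A, P14, B, A and parental on day 1 did not overlap with their neighbours. Below them came the EpiLC means, from 6.57 in the parental line to 6.13 in the A line, where those of BP14A, B and A overlapped.

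The other Kit probe set, 1415900_a_at, read 4.36 to 5.46 over all arrays and showed no such rise. It was called in none of the 4 day 1 comparisons with the parental line, with differences of 0.29 in BP14A, 0.40 in B (limma adjusted p 0.0495, under the size limit), 0.02 in P14 and -0.21 in A. The 2 Kit probe sets thus disagreed, and averaging them gave 0.72 for B and 0.64 for P14, both under the size limit. Which part of the transcript each one reads was not given.

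Within each line, Kit 1452514_a_at rose from EpiLC to day 1 by 2.44 in BP14A, 1.48 in B and 1.54 in P14. The parental change was 0.18 ± 0.12, and that of the A line 0.87 (limma adjusted p 0.000234), under the size limit. Without A EpiLC replicate 2 the A line change was 1.005, just over that limit. The difference between each line's change and the parental change was 2.27 ± 0.17 in BP14A (limma adjusted p 4.46e-06), 1.30 ± 0.17 in B (0.00145) and 1.37 ± 0.17 in P14 (0.000326). In the A line it was 0.69 and did not pass the test (limma adjusted p 0.897). The other Kit probe set, 1415900_a_at, was called in none of these comparisons. Its means went from 4.70 to 4.99 in the parental line and from 5.145 to 5.285 in BP14A, a smaller rise. They went from 4.90 to 5.395 in B, from 4.73 to 5.015 in P14 and from 4.43 to 4.78 in A.

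The promoter of Kit is shown because Tfap2c encodes AP-2 gamma, a factor that binds GC-rich palindromes, and because Kit was the only member whose promoter window held a searched motif. The motifs searched on both strands were GCCNNNGGC for AP-2, AGNGAAAG for Blimp1 and GGTCTCTAA for Prdm14, as simple letter patterns in the 300 bases around each gene start in RefSeq (250 before, 50 after). The line gives the 250 bases before the Kit start on the plus strand of GRCm38.p6, chr5:75574737-75574986, with the AP-2 match in capitals.
Kit: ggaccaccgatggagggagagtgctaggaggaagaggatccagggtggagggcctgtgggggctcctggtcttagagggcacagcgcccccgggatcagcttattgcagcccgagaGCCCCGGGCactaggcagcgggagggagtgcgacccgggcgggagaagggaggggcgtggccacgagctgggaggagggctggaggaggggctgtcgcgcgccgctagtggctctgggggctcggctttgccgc
The match begins at base -134 from the start. The same pattern was in 16.6% of all 32851 promoter windows, the Blimp1 pattern in 8.63% and the Prdm14 pattern in 0.256%. A match of letters is a description of the sequence, and binding was not measured in these samples.

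**Figure D1:**
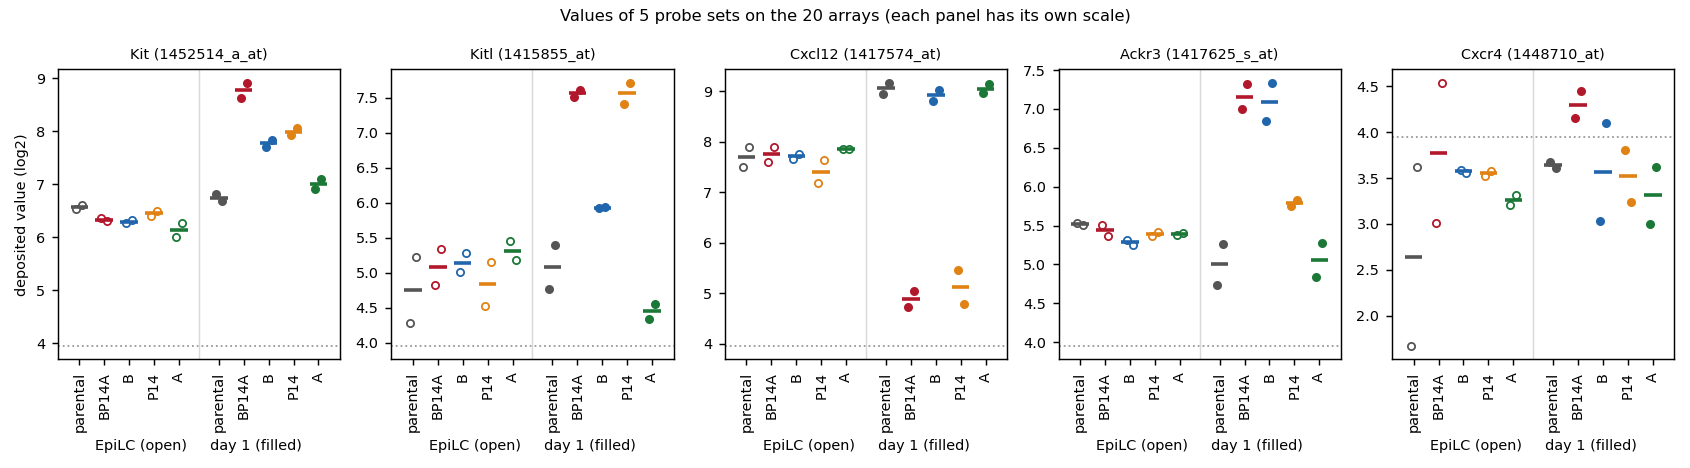
Deposited log2 values of the tested probe set of each gene with the widest range of group means, on all 20 arrays, by line, with EpiLC arrays as open circles, day 1 arrays as filled circles, group means as bars, and the level of 3.95 as a dotted line. Kit reaches 8.62 and 8.92 in the BP14A line on day 1, while Cxcl12 falls to 4.72 and 5.05 there and to 5.46 and 4.78 in the P14 line.

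Kitl, the ligand of KIT, was higher on day 1 in the BP14A and P14 lines on 2 of its 4 probe sets. On probe set 1415855_at the parental arrays read 4.28 and 5.23 as EpiLCs and 4.76 and 5.39 on day 1. On day 1 the BP14A arrays read 7.51 and 7.62, the P14 arrays 7.41 and 7.72, the B arrays 5.92 and 5.94, and the A arrays 4.34 and 4.55. The BP14A and P14 arrays overlapped each other and lay above all other arrays, the B arrays stood above the parental day 1 arrays, and the A arrays were the lowest on day 1. Against the parental line the difference was 2.49 ± 0.32 in BP14A (limma adjusted p 0.000137) and 2.49 in P14 (limma adjusted p 0.00018), each 5.62-fold. In B it was 0.85 (limma adjusted p 0.12) and in A -0.63 (limma adjusted p 0.93), neither past the test.

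The difference between BP14A and P14 on 1415855_at was 0.00, with an interval of -0.69 to 0.69. Both were higher than B by 1.64 (limma adjusted p 0.00296 for BP14A and 0.00292 for P14) and higher than A by 3.12. The A line was 1.48 lower than the B line (limma adjusted p 0.0111), a call that was lost without A day 1 replicate 1 (limma adjusted p 0.0785) or without either B day 1 array (limma adjusted p 0.0577 and 0.0606).

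Probe set 1448117_at, which the annotation ties to the same sequence entry as 1415855_at and 1415854_at, was dimmer and noisier. Its parental day 1 arrays read 3.17 and 1.94, those of BP14A 5.06 and 4.85, of P14 4.95 and 4.89, of B 4.40 and 3.69, and of A 3.57 and 2.86. The BP14A and P14 arrays were the highest, above a parental group whose mean of 2.56 lay below the level of 3.95. The sizes are therefore approximate. Only the day 1 means of BP14A (4.955), P14 (4.92) and B (4.045) reached that level. The probe set thus entered the test only through groups where it was high. Its calls are therefore not separate support for the result on 1415855_at. The differences from the parental line were 2.40 ± 0.46 in BP14A (limma adjusted p 0.00276) and 2.37 ± 0.46 in P14 (limma adjusted p 0.00369), and both lost the call with only the arrays compared in the fit (adjusted p 0.1 and 0.0991). The B line differed by 1.49 and was not called (limma adjusted p 0.0629), but was called at 2.10 without parental day 1 replicate 1 (limma adjusted p 0.0335) and at 1.49 with the replicate number as a block (limma adjusted p 0.0316).

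The remaining 2 Kitl probe sets were called in no comparison with the parental line. Probe set 1426152_a_at, the brightest of the 4, read between 5.70 and 6.35 on all 20 arrays, and its differences from the parental line on day 1 ran from -0.03 to 0.18. Probe set 1415854_at read 2.71 to 4.27, at or above the level in only 2 group means, and differed by 0.50 in BP14A and 0.40 in P14 without passing the test. The 4 Kitl probe sets therefore disagreed in size, and the average of all of them differed from the parental line by 1.35 in BP14A and 1.36 in P14. Kitl is known as a transcript with alternative forms that are membrane-bound or released, but the part of it that each probe set reads was not given.

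**Figure D2:**
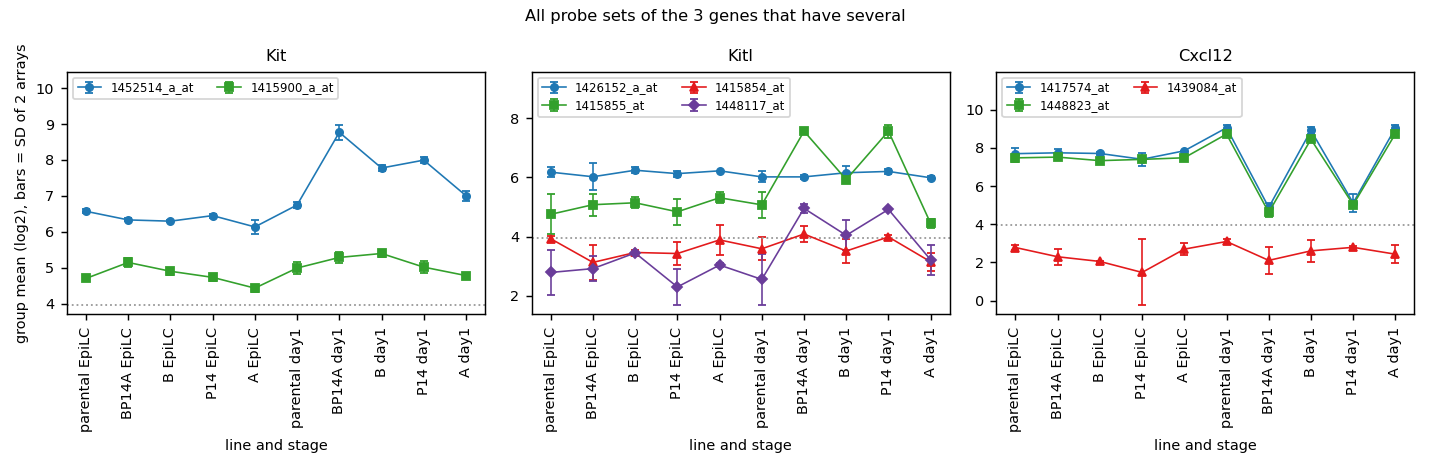
Group means on the log2 scale of every probe set of Kit, Kitl and Cxcl12 in the 10 groups, with bars of 1 SD of 2 arrays and the level of 3.95 as a dotted line; lines join the groups only to guide the eye. Kit 1452514_a_at is highest in the BP14A line on day 1 and Kitl 1415855_at and 1448117_at in the BP14A and P14 lines, while Kitl 1426152_a_at stays between 5.99 and 6.25 and Cxcl12 1439084_at never exceeds a mean of 3.10.

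From EpiLC to day 1, Kitl 1415855_at rose by 2.48 in BP14A (limma adjusted p 7.86e-05) and by 2.73 in P14 (5.29e-05). The parental change of 0.32 and the B change (limma adjusted p 0.081) were not called, and the A line changed by -0.87 (limma adjusted p 0.069). Set against the parental change, the difference was 2.16 ± 0.45 in BP14A (limma adjusted p 0.00738) and 2.40 ± 0.45 in P14 (limma adjusted p 0.00581), and both were lost with only the arrays compared in the fit (adjusted p 0.0915 and 0.0966).

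Cxcl12, the chemokine that attracts migrating germ cells, moved in opposite directions in different lines. It rose from EpiLC to day 1 in the parental, B and A lines and fell in the BP14A and P14 lines. On probe set 1417574_at the parental arrays went from 7.50 and 7.90 to 8.94 and 9.17, the B arrays from 7.66 and 7.76 to 8.80 and 9.03, and the A arrays from 7.85 and 7.85 to 8.96 and 9.14. The BP14A arrays went from 7.60 and 7.89 to 4.72 and 5.05, and the P14 arrays from 7.17 and 7.64 to 5.46 and 4.78. The 10 EpiLC arrays, from 7.17 to 7.90, lay between these day 1 clusters and overlapped neither.

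On probe set 1448823_at, too, the BP14A and P14 lines were low on day 1 and the other lines high. On day 1 it read 8.64 and 8.81 in the parental line, 8.40 and 8.51 in B, 8.70 and 8.79 in A, 4.80 and 4.45 in BP14A and 5.08 and 4.97 in P14. The BP14A and P14 arrays stood far below the other lines and did not overlap each other. The third probe set, 1439084_at, had no group mean above 3.10 and was not tested.

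In the parental line, Cxcl12 rose on day 1 by 1.35 ± 0.23 (limma adjusted p 0.00112) and 1.25 ± 0.13 (limma adjusted p 2.58e-05) on the 2 tested probe sets. These were the only 2 of the 10 tested members called there, beside 5.58% of all kept probe sets. Cxcl12 also rose in the B line, by 1.20 and 1.12, and in the A line, by 1.20 and 1.26, but with treat, which tests against a change of 0.5, the 1417574_at rises lost their call (adjusted p 0.0659 in B and 0.114 in A). It fell by 2.86 and 2.90 in the BP14A line and by 2.29 and 2.38 in the P14 line, where these were the only members called lower.

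Against the parental line on day 1, Cxcl12 1417574_at was 18-fold lower in BP14A (-4.17 ± 0.23, limma adjusted p 1.61e-07) and 15.3-fold lower in P14 (-3.94 ± 0.23, limma adjusted p 4.02e-07). Probe set 1448823_at gave -4.10 ± 0.13 and -3.70 ± 0.13 (limma adjusted p 2.63e-09 and 5.72e-09). The B and A lines were not called, with differences of -0.14 (interval -0.64 to 0.36) and -0.01 (interval -0.51 to 0.50) on 1417574_at. On 1448823_at the B line was at -0.27 (interval -0.54 to 0.00, limma adjusted p 0.225), not called, although its arrays lay below both parental arrays, and the A line was at 0.02 (interval -0.25 to 0.29). Less the B line, BP14A was at -4.03 (limma adjusted p 2.58e-07) and P14 at -3.80 (limma adjusted p 4.34e-07). Between BP14A and P14 the difference was -0.23 (interval -0.74 to 0.27) on 1417574_at and -0.40 (interval -0.67 to -0.13, limma adjusted p 0.136) on 1448823_at, neither called. Measured against the parental change, the Cxcl12 change was -4.22 and -4.14 in BP14A (limma adjusted p 6.7e-06 and 1.28e-07) and -3.64 and -3.62 in P14 (limma adjusted p 3.93e-05 and 3.84e-07).

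In bulk samples, fewer cells that make Cxcl12 and less Cxcl12 RNA per cell cannot be told apart. Fibroblasts are a known source of CXCL12, and per the labels the stem cells had been adapted to growth without feeders. Against the parental line on day 1, 2 of 7 tested fibroblast and feeder markers were lower in BP14A, Thy1 (-3.04) and Dcn (-1.06). In P14, 1 was lower, Thy1 (-2.62), and in B, 1 was higher, Acta2 (1.68). The Acta2 call was lost without B day 1 replicate 1 (1.35) or parental day 1 replicate 2 (1.455). The called shares of 28.6%, 14.3% and 14.3% in BP14A, P14 and B stood beside 6.47%, 5.27% and 2.43% of all genes. The summed level of all measured markers of that list, in log2, ran from 10.15 to 10.26 on the parental day 1 arrays, 9.815 to 9.923 in BP14A, 9.652 to 10.02 in P14, 10.68 to 11.04 in B and 10.11 to 10.43 in A. No marker was at 0 on both arrays of a group, and the part of such cells in the Cxcl12 difference was not tested. From EpiLC to day 1, Mixl1 and Foxa1 were called lower in BP14A. Foxa2 was called in neither BP14A nor P14 over that step, and was called higher in the parental line. Against the parental line on day 1, 1 of 9 mesoderm markers was lower in BP14A, Mixl1. Of 7 endoderm markers, 2 were lower there, Foxa1 and Foxa2, and Foxa2 also in P14, all at means below the level of 3.95. Without single arrays these calls were lost, Mixl1 at an adjusted p of up to 0.197, Foxa1 at 0.0781 and Foxa2 at up to 0.284.

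The sequence before the Cxcl12 start is shown because this gene changed most among the members. It is on the plus strand of GRCm38.p6 at chr6:117168285-117168534, and it held none of the 3 motifs, so nothing is in capitals.
Cxcl12: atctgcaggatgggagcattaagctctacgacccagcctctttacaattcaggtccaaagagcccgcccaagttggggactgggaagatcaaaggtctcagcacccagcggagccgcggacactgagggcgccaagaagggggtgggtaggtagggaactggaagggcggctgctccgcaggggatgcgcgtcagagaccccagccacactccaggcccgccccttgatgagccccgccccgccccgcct
Its GC content was 64.4%, against 70.8% for the Kit stretch.

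Ackr3, the CXCL12-binding receptor that does not signal through G proteins, was higher on day 1 in the BP14A and B lines. On probe set 1417625_s_at, its only one, the 10 EpiLC arrays read 5.25 to 5.53. On day 1 the parental arrays read 4.74 and 5.26, BP14A 7.00 and 7.32, B 6.84 and 7.34, P14 5.75 and 5.83, and A 4.84 and 5.27. The BP14A and B arrays overlapped each other and stood above all others, the P14 arrays lay between them and the EpiLC arrays without overlap, and the A arrays overlapped the parental ones.

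Against the parental line Ackr3 was 4.47-fold higher in BP14A (2.16 ± 0.20, limma adjusted p 9.85e-06) and 4.26-fold higher in B (2.09 ± 0.20, limma adjusted p 5.5e-05). In P14 the difference was 0.79 (limma adjusted p 0.0165), under the size limit, and 1.05 without parental day 1 replicate 2 (limma adjusted p 0.00867), which would be a call. With only the arrays compared in the fit, the B difference had an adjusted p of 0.134. The difference between BP14A and B was 0.07, with an interval of -0.36 to 0.50. BP14A was higher than P14 by 1.37 ± 0.20 (limma adjusted p 0.00257), and P14 less B was -1.30 ± 0.20 (limma adjusted p 0.000544), calls that were lost with only the arrays compared (adjusted p 0.347 and 0.0747). Within the lines Ackr3 rose by 1.72 in BP14A and 1.80 in B, and less the parental change this was 2.24 ± 0.28 (limma adjusted p 0.000242) and 2.33 ± 0.28 (limma adjusted p 0.000953). The A line differed from the parental line by 0.06 (interval -0.37 to 0.48).

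The sequence before the Ackr3 start, on the plus strand of GRCm38.p6 at chr1:90203730-90203979, is shown for comparison with Cxcl12, since ACKR3 binds CXCL12. It held none of the 3 motifs, and neither did the windows of Kitl and Cxcr4.
Ackr3: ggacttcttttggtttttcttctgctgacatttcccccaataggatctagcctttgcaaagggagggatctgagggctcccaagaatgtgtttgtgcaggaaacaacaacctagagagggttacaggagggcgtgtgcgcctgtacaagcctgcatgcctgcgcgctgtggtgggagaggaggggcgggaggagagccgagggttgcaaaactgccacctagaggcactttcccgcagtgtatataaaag
With a GC content of 54% it was the least GC-rich of the 3 stretches shown.

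Cxcr4, the signalling receptor for CXCL12, was near background throughout. Probe set 1448710_at, its only one, read 1.67 and 3.62 in the parental EpiLCs and 3.67 and 3.61 in the parental day 1 arrays. The BP14A arrays read 3.01 and 4.54 as EpiLCs and 4.15 and 4.45 on day 1, and the other 12 arrays lay between 3.00 and 4.10. The BP14A line on day 1 was the only group with a mean, 4.30, above the level of 3.95, and that group alone brought the probe set into the test. It was called in none of the 23 comparisons, and the interval of its difference from the parental line on day 1 in BP14A ran from -0.64 to 1.96. Without parental EpiLC replicate 2 the parental change would be a call (1.97, limma adjusted p 0.0284), which rests on the single array at 1.67.

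**Figure D3:**
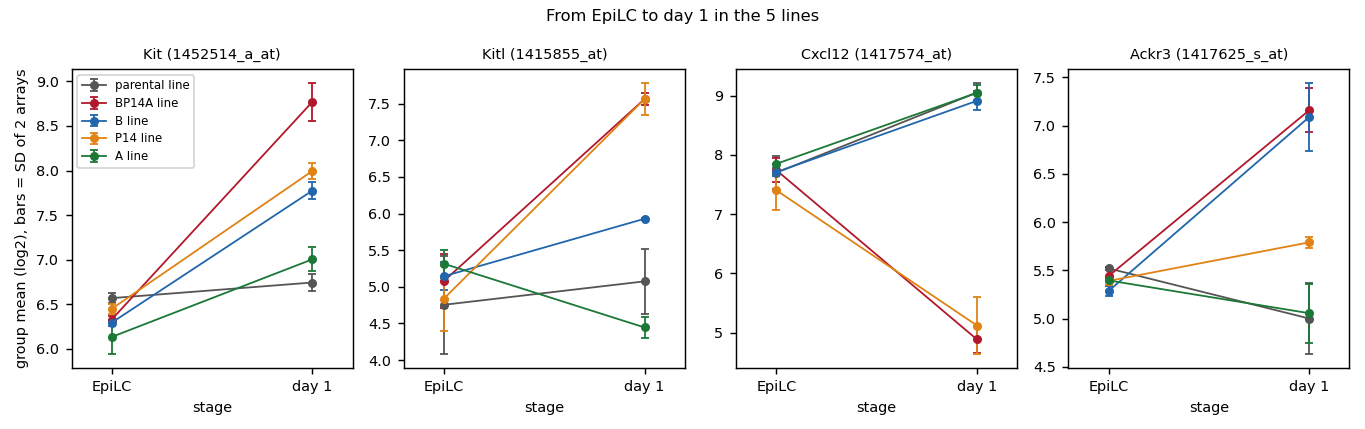
Group means on the log2 scale of Kit, Kitl, Cxcl12 and Ackr3 as EpiLCs and on day 1 in the 5 lines, with bars of 1 SD of 2 arrays. Kit 1452514_a_at rises most in the BP14A line (to 8.77), Cxcl12 falls in the BP14A and P14 lines alone (to 4.88 and 5.12), and Ackr3 rises in the BP14A and B lines (to 7.16 and 7.09).

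Read line by line on day 1 against the parental line, 6 of the 10 tested members were called in BP14A, 4 higher and 2 lower, beside 5.28% of all kept probe sets (2.24% higher and 3.04% lower). In P14, 5 were called, 3 higher and 2 lower, beside 4.23% (1.7% higher and 2.54% lower). In B, 2 were called, Kit and Ackr3, both higher, beside 1.97% (1.01% higher and 0.956% lower). In A, 0 were called by limma, beside 0.0231% (0.0033% higher and 0.0198% lower). In A, 1 member, Kit 1452514_a_at, and 1698 of all kept probe sets had an unadjusted limma p under 0.05 there. The counts are of probe sets, and probe sets of the same gene are not separate results. In BP14A and P14 they include Kitl 1448117_at, which entered the test only through groups where it was high. Its calls are not separate support. The 4 comparisons share the parental arrays. The pattern over the members was thus not the same in each line. Kit was higher in BP14A, P14 and B on 1 of its 2 probe sets. Kitl was higher in BP14A and P14 on 2 of its 4 probe sets, its brightest not among them. Cxcl12 was lower in BP14A and P14 on both tested probe sets, and Ackr3 was higher in BP14A and B.

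**Figure D4:**
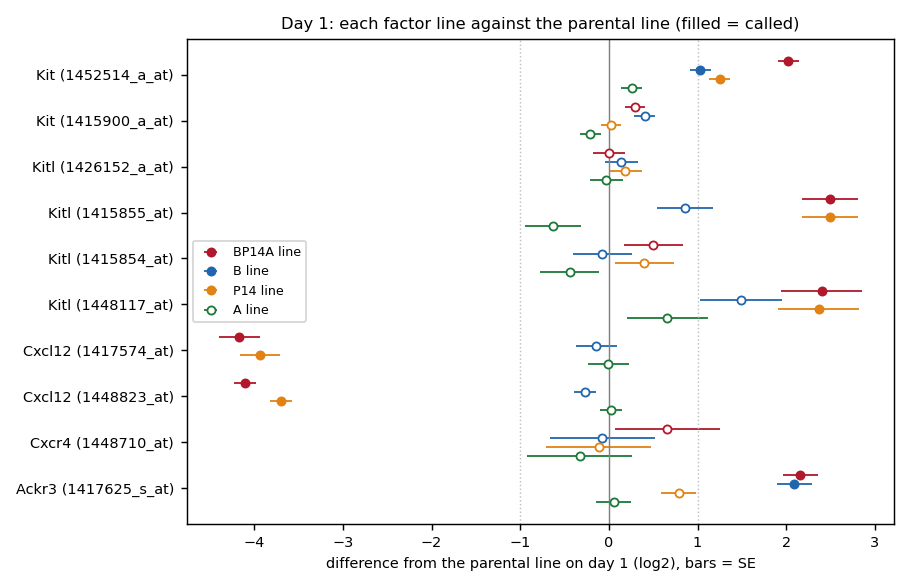
Difference from the parental line on day 1, in log2 with bars of 1 SE, of the 10 tested probe sets in the 4 factor lines; filled points were called, open points were not, and dotted lines mark a size of 1. The 2 Cxcl12 probe sets lie between -4.17 and -3.70 in the BP14A and P14 lines, while the A line has no filled point.

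The same counts for day 1 against EpiLC within a line were 4 higher and 2 lower in BP14A (9.16% of all kept probe sets called), 4 higher in B (8.35%), 3 higher and 2 lower in P14 (6.92%) and 2 higher in A (5.09%). Kitl 1448117_at, with the limit given above, is again among those higher in BP14A and P14. Of the changes less the parental change, 4 were higher and 2 lower in BP14A (5.02%), 2 were higher in B (1.62%), 3 were higher and 2 lower in P14 (3.22%) and 0 were called in A by limma (0%; 1253 of all kept probe sets had an unadjusted p under 0.05). Between factor lines, 1 member was higher and 2 were lower in BP14A than in B (4.95%), 1 was higher in BP14A than in P14 (0.751%), and 4 were higher and 2 lower in BP14A than in A (5.69%). In P14 against B, 1 was higher and 3 were lower (5.16%), in A against B 2 were lower (2.05%), and in A against P14 2 were higher and 2 lower (4.56%).

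Other genes of these pathways were read from lists, each gene by its brightest probe set and without the 5 members. Over all 14010 genes tested this way, 6.47% were called in BP14A, 5.27% in P14, 2.43% in B and 0.0286% in A against the parental line on day 1, with medians of -0.01, -0.04, 0.02 and -0.03, and 6.4% in the parental line from EpiLC to day 1.

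Of 9 tested genes of the KIT receptor family and its ligands, 1 was called in BP14A and in P14 and 0 in B or A. Against the parental line on day 1, Pdgfa, a ligand of the related PDGF receptors, was higher by 2.65 ± 0.14 in BP14A (limma adjusted p 9.61e-08). In P14 it was higher by 1.64 ± 0.14, and the list medians were 0.02 in BP14A and 0.10 in P14. Csf1, the ligand of the related CSF1 receptor, was not called, with means of 7.12 in the parental line and 7.18 in BP14A on day 1.

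Of 28 genes that act downstream of KIT, 1 was higher and 2 were lower in BP14A than in the parental line on day 1. In P14, 2 were higher and 2 lower, with list medians of -0.09 in BP14A and -0.10 in P14. Pik3cb, a catalytic subunit of phosphoinositide 3-kinase, was higher by 1.51 ± 0.10 in BP14A and 1.24 ± 0.10 in P14. Src, a tyrosine kinase activated by KIT, was lower by 1.78 in BP14A and 1.10 in P14. Shc1, an adaptor to the RAS pathway, was lower by 1.09 in BP14A and 1.15 in P14. From EpiLC to day 1, Shc1 was called lower in both lines and Src in BP14A, while Pik3cb was called in neither. Spry4, an inhibitor of receptor kinase signalling, was higher by 1.25 in P14, but by 0.57 and without a call when its probe sets were averaged. In B only Jak2 was called (1.07 ± 0.19), and it was 0.99 with centred arrays. The difference of Src in P14 was -0.97 without P14 day 1 replicate 2. In the parental line Gab1, a docking protein for KIT signalling, fell from 10.60 to 8.68 between EpiLC and day 1. It was called lower over that step in every factor line too.

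Of 27 genes around CXCL12 and its receptors, 1 was higher and 2 were lower in BP14A than in the parental line on day 1. The counts were the same in P14 (medians -0.11 and -0.05), and 0 were called in B or A. Epas1, which encodes the hypoxia-inducible factor HIF-2 alpha, was higher by 4.26 ± 0.15 in BP14A (limma adjusted p 5.55e-09). In P14 it was higher by 4.97 ± 0.15 (limma adjusted p 2.91e-09). The parental day 1 mean of Epas1, 5.45, was itself 2.93 below the parental EpiLC mean (-2.93). Arrb1, a beta-arrestin that takes up activated chemokine receptors, was lower by 1.48 in BP14A and 1.49 in P14. Gnai2, a G protein subunit used by CXCR4, was lower by 1.15 in P14. Vav3 was lower by 1.02 in BP14A, a call that was lost without parental day 1 replicate 2 (-0.94) or BP14A day 1 replicate 2 (-0.90). From EpiLC to day 1 within BP14A and P14, Epas1 was called higher, while Arrb1, Gnai2 and Vav3 were not called. In the parental line Arrb1, Dock1 and Grk3 rose from EpiLC to day 1, by 1.39, 1.16 and 1.35. Over that step Dock1 was called higher in every line, also in BP14A and P14, where Cxcl12 fell. Arrb1 was also called higher in B and A, and Grk3 in no factor line.

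Of 42 listed genes for other chemokines and their receptors, 39 were on the array and 20 reached the level for a test. Cxcl10, a chemokine induced by interferon, was the only one of these called lower against the parental line, at -2.21 ± 0.25 in BP14A, -2.15 in B and -1.09 in P14. Its parental mean was 4.89 and its BP14A mean 2.69, below the level, so the sizes are approximate, and the P14 call was lost without parental day 1 replicate 2 (limma adjusted p 0.0711) or P14 day 1 replicate 2 (limma adjusted p 0.1). Cxcl14 was higher by 1.34 in BP14A (limma adjusted p 0.0241), a call that was lost when any of the 4 arrays compared was left out.

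Of 24 genes for germ cell migration and survival, 4 were higher and 3 lower in BP14A than in the parental line on day 1. In P14, 4 were higher and 4 lower, and in B 4 were higher and 1 lower. The called share was 29.2% in BP14A, 33.3% in P14 and 20.8% in B, beside 6.47%, 5.27% and 2.43% of all genes. The list was drawn up with earlier results of these data known, so its direction is not independent evidence. Dppa3 (stella, the reporter gene of these lines) was higher by 5.36 ± 0.28 in BP14A, 3.65 in P14 and 2.68 in B. With only the arrays compared in the fit, the B line lost the calls of Dppa3, Ifitm1, Ifitm3 and Fgf8 (adjusted p 0.137, 0.0726, 0.103 and 0.119). Ifitm3 and Ifitm1, membrane proteins of early germ cells, were higher by 3.46 and 2.73 in BP14A. Dppa3 and Ifitm3 were themselves called lower in the parental line from EpiLC to day 1, and Dppa3, Ifitm1 and Ifitm3 in the A line. Over that step Dppa3 was called higher in BP14A, P14 and B. Ifitm3 was called higher in BP14A and P14 but not in B, and Ifitm1 in BP14A and B but not in P14. Gja1, a gap junction protein, was lower by 3.42 ± 0.12 in BP14A and 2.30 in P14. Ror2, a WNT5A receptor needed for germ cell movement, was lower by 2.33 and 1.66 in these lines. Itga6, a laminin receptor subunit, was lower in both. Fgfr1 was at -1.18 in P14, but at -0.76 and not called with its probe sets averaged. Fgf8 was lower in B by 2.71, at a mean of 3.10 below the level. From EpiLC to day 1, Fgf8 was called higher in the parental line and was not called in B. In the A line 0 of the 24 were called by limma.

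**Figure D5:**
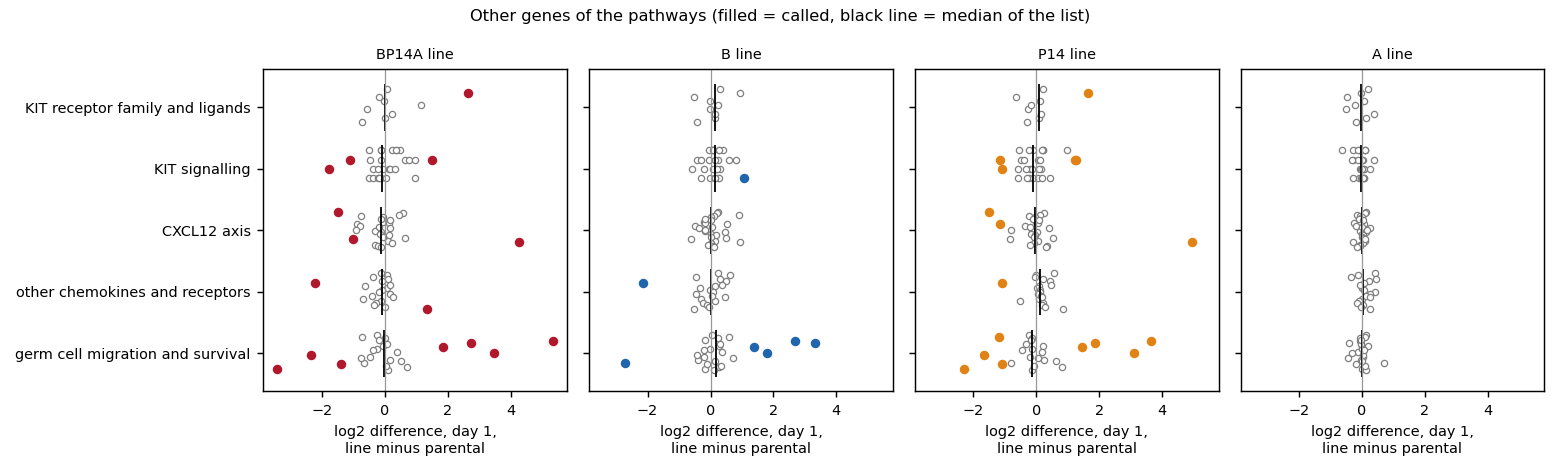
Difference from the parental line on day 1, in log2, of every tested gene of 5 lists in the 4 factor lines, each gene by its brightest probe set; filled points were called and black lines are list medians. Epas1 stands out in the list around CXCL12 at 4.26 in the BP14A line and 4.97 in the P14 line, Dppa3 is highest in the germ cell list at 5.36, and the A line has no called gene.

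Blood and endothelial cells also carry KIT, and their markers were read beside Kit. Of 9 tested, Pecam1 was higher in BP14A (1.58) and P14 (1.43) than in the parental line on day 1. Tek was higher in BP14A (1.10) and B (1.17). The called share was 22.2% in BP14A, 11.1% in P14 and 11.1% in B, beside 6.47%, 5.27% and 2.43% of all genes. From EpiLC to day 1, 0 of the list were called in BP14A, B and P14, while Tek was called lower in the parental line. The B call of Tek was lost without B day 1 replicate 2 (0.94) and the BP14A call without parental day 1 replicate 1 (1.00, at the limit of size). The summed level of the list on day 1, in log2, was 7.675 to 7.755 in the parental line, 7.961 to 7.996 in BP14A, 7.944 to 7.986 in B, 8.018 to 8.037 in P14 and 7.587 to 7.701 in A. As EpiLCs the summed level was 8.044 to 8.225 in the parental line, 8.022 to 8.196 in BP14A and 8.167 to 8.246 in B. It was 8.003 to 8.04 in P14 and 8.101 to 8.182 in A. No marker of the list was at 0 on both arrays of a group, and the part of such cells in the Kit difference was not tested.

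The genes whose 10 group means ran most closely with a member were named by Pearson r of the group means, as a description over 10 means that share arrays. With Kit these were Nrsn1 (0.9958), Limk2 (0.9877) and B4galt6 (0.9866). With Cxcl12 they were Hip1 (0.9918), Tmem198b (0.99) and Thy1 (0.9881). The day 1 mean of Thy1 was 7.07 in the parental line and 4.03 in BP14A. With Ackr3 they were Dpm1 (0.9733, not among the 3 with centred arrays), Atl3 (0.9674) and Smim19 (0.967). For Kitl and Cxcr4, whose brightest or only probe set was called in none of the comparisons, the closest were Spi1 (0.9127) and Pigb (0.9301, not among the 3 with centred arrays).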

How the data were processed

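RNA of 20 samples was measured on 1 array each. The deposited log2 values give each probe set on each array, with base 2 inferred from their range of 0 to 13.83. For their normalization, summarisation and software, the sources used here give nothing. A scaling that differed between arrays would shift every difference. Per the labels, biotinylated cRNA came from total RNA by the one-cycle protocol. The 64 control probe sets were left out. The platform table pairs 34945 probe sets with 1 gene and 932 with several, and 9160 are unnamed. limma 3.58.1 in R 4.3.3 fitted 10 group means to the 20 arrays (10 residual degrees of freedom), with 23 two-sided contrasts, each adjusted by Benjamini-Hochberg. Such p-values measure the spread between arrays labelled as duplicates. Alternatives changed the filter, scaling, floor, probe sets per gene, prior, test (treat), block and arrays in the fit. The fit was tested on simulated data. Named genes were the members, the 3 genes most like each, the factors, and up to 3 called genes per list, direction and day 1 comparison; Eif2s3y, Gab1, Csf1, Dock1, Grk3 and Itga6 in P14 were named after their values were seen. Members, lists and tests were chosen with earlier results of these data known. Promoters are from RefSeq (GRCm38.p6), where all 5 genes matched. Plots used Python 3.11.15 and matplotlib 3.10.9.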

Additional observations from a re-analysis of the deposited data

Results flagged for a closer look

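Each result here is a change from EpiLC to day 1 in a factor line that differed from the change in the parental line by limma's test of the difference itself, with an adjusted p under 0.05 and a size of at least 1. There were 13 among the 10 tested member probe sets and 4 lines. All share the parental arrays, and clone, factor and doxycycline cannot be told apart in them. Kitl 1448117_at is among them and entered the test only through groups where it was high. Kit 1452514_a_at exceeded the parental change by 2.27 in BP14A, 1.30 in B and 1.37 in P14. Kitl 1415855_at exceeded it by 2.16 in BP14A and 2.40 in P14, and Kitl 1448117_at by 2.27 in BP14A and 2.86 in P14. Cxcl12 1417574_at fell short of it, with differences of -4.22 in BP14A and -3.64 in P14, and Cxcl12 1448823_at with -4.14 and -3.62. Ackr3 1417625_s_at exceeded it by 2.24 in BP14A and 2.33 in B. Some of these were lost under other settings. Kit in B was lost with treat (adjusted p 0.0514) and with its probe sets averaged (0.76), Kit in P14 with averaging (0.68), and Ackr3 in B with only the arrays compared (adjusted p 0.067). Kitl 1415855_at was lost in BP14A with treat (adjusted p 0.0513), and in both lines with only the arrays compared (adjusted p 0.0915 and 0.0966). The Kitl 1448117_at differences were lost in both lines with treat (adjusted p 0.211 and 0.0936) and with only the arrays compared (adjusted p 0.168 and 0.138). They also lost their call without a filter in BP14A (adjusted p 0.0741) and when 1 of several arrays was left out, with values between 1.66 and 2.56 in BP14A and between 2.24 and 2.88 in P14.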

How the results depend on the processing

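With 2 arrays a group, each value rests on few arrays, and dim probe sets (Cxcr4, Kitl 1448117_at) are the least certain. The parental day 1 change and the 4 day 1 comparisons gave 25 differences, with 1 probe set per gene. Whether each was called or not did not change without a filter, with a floor, with another prior or with treat. Nor did it change with 1 probe set per gene or with the replicate block. Many of the 25 were not calls in the main fit, among them all those of Kitl, of Cxcr4 and of the A line. Kitl was represented by its brightest probe set, so the called Kitl probe sets were not covered. The causes of the changes below were not tested, except that fewer arrays in the fit leave fewer degrees of freedom. Kit in B against the parental line lost its call with centred arrays (0.94), quantile normalization (0.98), averaged probe sets (0.72) and only the arrays compared (1.03, adjusted p 0.119), and ran from 0.96 to 1.09 without single arrays. Averaging gave Kit 0.64 in P14, and for Kitl calls of 1.35 in BP14A and 1.36 in P14 and a reversed change from EpiLC to day 1 of 1.37 in BP14A, where the brightest probe set is flat. Ackr3 in B lost its call with only the arrays compared (2.09, adjusted p 0.134). Without single arrays, Ackr3 in P14 ran from 0.53 to 1.05 and the parental Cxcr4 change from 0.02 to 1.97.

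The share of kept probe sets called moved by over 1.5 times as follows. With only the arrays compared it was 3.16% in BP14A, 0.033% in B and 0% in A against the parental line on day 1; 0%, 0.0165%, 0% and 0% in BP14A, B, P14 and A EpiLCs; 0.323% for the B change less the parental change; and 2.61% for BP14A against B, 0% against P14 and 3.71% against A, 2.98% for P14 against B and 0.0593% for A against B. With no filter it was 1.31% in B and 0.0133% in A on day 1, 0.00666% in BP14A and 0.0511% in B EpiLCs, 3.25%, 0.862% and 1.99% for the BP14A, B and P14 changes less the parental change, 0.482% for BP14A against P14 and 1.33% for A against B. With treat it was 0.992% in B and 0.00659% in A on day 1, 0.0033%, 0.0527% and 0.0033% in BP14A, B and A EpiLCs, 2.95%, 0.428% and 1.77% for the same 3 changes, 0.241% for BP14A against P14 and 1.12% for A against B. The stricter filter gave 0.0397% in A on day 1 and 0.0546% in P14 EpiLCs. Centring gave 0.0132% in A on day 1, as did quantile normalization, and 0.0033% in BP14A EpiLCs. Averaging gave 0.0143% of genes in A on day 1 and in A EpiLCs, and another prior 0.00989% in BP14A EpiLCs. Without single arrays the share ran from 0.0033% to 0.0593% in A on day 1, 0.00989% to 0.0494% in A EpiLCs, 0.0231% to 0.033% in BP14A EpiLCs, 0.0725% to 0.155% in B EpiLCs, 0.0362% to 0.0824% in P14 EpiLCs and 0% to 0.00659% for the A change less the parental change.

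The other scalings moved the median of all kept probe sets by at most 0.13, for A against B with centring. Centring moved the part of the B calls that were higher than in the parental line on day 1 from 51.4% to 38.5%. Outside the differences counted above, treat changed 12 of 205 member results, called or not, and only the arrays compared 13. Of 76 results on other named genes, chosen as alternatives after seeing the data, only the arrays compared ended 21 calls, treat 14, averaging 8 (among them Src, Shc1, Spry4 and Fgfr1 in P14) and centring 3. Replicate 1 deviations from the group means correlated between groups at -0.386 to 0.361 (median 0.0626), with 13 of 45 pairs above 0.1 and 3 below -0.1, so the labels and this check do not establish a pairing by number. With the replicate number as a block, the share for BP14A against the parental line on day 1 stayed within 1.5 times, and the block changed 1 member call, that of Kitl 1448117_at in B (1.49, adjusted p 0.0316).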
